A study of Mus musculus with 16 samples.

Results

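The genes described here are the 9 that make and load major histocompatibility complex (MHC) class I molecules and that were listed by symbol among the 19999 genes of a single-nucleus RNA-Seq count table of mouse medial prefrontal cortex. They comprise the heavy chains H2-K1, H2-D1 and H2-T23, the light chain B2m, the peptide transporter subunits Tap1 and Tap2, the loading bridge Tapbp, and the immunoproteasome subunits Psmb8 and Psmb9. The genes were listed by name, at a time when earlier results of these data were known. The study asked how a history of repeated alcohol intoxication alters the prefrontal transcriptome of mice that carry familial Alzheimer's disease mutations. The 16 libraries, each from 1 male mouse of 22 weeks, formed 4 groups of 4 mice, namely WT control, WT alcohol, 3xTg-AD (controls without alcohol) and 3xTg-AD alcohol.

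The WT mice were of the B6;129 strain, and the 3xTg-AD mice carry mutant human transgenes on a B6;129 background, so that transgenes and any difference in background between the strains cannot be told apart. Transgenes of this line are driven by a Thy1 promoter, which is active mainly in neurons. Alcohol was given as chronic intermittent ethanol vapor with injections of ethanol and pyrazole, an inhibitor of alcohol dehydrogenase. Control mice breathed air and received pyrazole in saline, so all 4 groups share pyrazole. The human transgenes were not measured here, and the genotype of each mouse is that of its label.

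MHC class I molecules sit on the cell surface and show short peptides from the cell's own proteins to CD8 T cells and natural killer cells. The proteasome cuts the peptides, the TAP transporter carries them into the endoplasmic reticulum, and tapasin (Tapbp) holds an empty heavy chain with β2-microglobulin (B2m) at the transporter until a peptide fits. In the resting brain the pathway is low in neurons and higher in blood vessels and microglia, and interferons and NF-kB raise its transcription through short elements upstream of the genes.

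To show these elements, the promoters of H2-K1 and B2m are printed 5′ to 3′ on the strand of the gene, from RefSeq on GRCm38.p6, with the matched letters in capitals. In the H2-K1 promoter (chr17:34000348-34000597, minus strand) the capitals mark the NF-kB site of the class I enhancer, searched in exactly these letters, 111 to 102 bases before the annotated start that borders the printed stretch and 125 to 116 before a second annotated start. The annotated gene itself reaches further upstream than both starts, so the stretch lies within its outer limits. In the B2m promoter (chr2:122147437-122147685, plus strand) they mark GAAACTGAAA, which fits the interferon-stimulated response element searched as GAAA, any 2 letters and GAAA, 139 to 130 bases before the start.
H2-K1: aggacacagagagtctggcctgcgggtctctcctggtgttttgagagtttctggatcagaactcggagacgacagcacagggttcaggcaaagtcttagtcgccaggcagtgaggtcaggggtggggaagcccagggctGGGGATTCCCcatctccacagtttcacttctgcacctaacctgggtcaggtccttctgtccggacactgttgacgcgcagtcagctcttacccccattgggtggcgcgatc
B2m: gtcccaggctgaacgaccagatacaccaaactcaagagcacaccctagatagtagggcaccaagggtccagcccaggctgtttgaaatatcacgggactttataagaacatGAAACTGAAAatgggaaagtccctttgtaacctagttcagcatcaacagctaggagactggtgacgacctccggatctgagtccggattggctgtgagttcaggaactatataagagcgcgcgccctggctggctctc

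The other heavy chains are shown as 30-base windows around their matches, so that they can be set beside H2-K1 and B2m. H2-D1 (chr17:35262913-35262942, plus strand) holds the same NF-kB letters 171 to 162 bases before its start, and H2-T23 (chr17:36032806-36032835, minus strand) holds the response element on the opposite strand, 124 to 115 bases before its start. In the GENCODE annotation both windows lie inside the first exon of their gene, ahead of its coding part, since transcripts there start further upstream than in RefSeq.
H2-D1 window: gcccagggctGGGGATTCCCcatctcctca
H2-T23 window: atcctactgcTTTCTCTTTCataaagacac
Over 32851 promoters of 250 bases searched on both strands, the NF-kB letters occurred in 28 (0.0852%) and the response element in 978 (2.98%). A match describes letters and is not a site shown to be bound. Of the 9 genes, 8 lie on chromosome 17 within the H2 region, from Tapbp (33919478 to 33929290, mm10) over H2-K1 (33996012 to 34000619), Psmb9, Tap1, Psmb8, Tap2 and H2-D1 to H2-T23 (36029977 to 36032701), and B2m lies on chromosome 2 (122147687 to 122153082).

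The table held 114512 nuclei and 216742276 unique molecular identifiers (UMIs, each standing for 1 captured RNA molecule), with 9622031 to 17544364 UMIs per mouse and a median of 1543 per nucleus. Nuclei were clustered without the 9 genes and named from markers (neurons from Slc17a7 and Gad1 alone), which put 68181 nuclei in 8 classes, from 44235 glutamatergic neurons over 7208 astrocytes and 2860 microglia and perivascular macrophages (microglia-PVM) to 368 endothelial nuclei. The 4 clusters taken as glutamatergic had Slc17a7 0.12 to 0.24 higher and Gad1 0.88 to 1.53 lower than all other nuclei on the log2 scale, while 0 of their 8 listed markers was 1.5-fold higher. The mean log2 fold of those markers ran from -0.372 to -0.269, below that of other nuclei. The other 46331 nuclei stayed unnamed and entered only the sums over all nuclei. In 3 libraries (WT control mice 26 and 27 and 3xTg-AD mouse 12) the ribosomal RNA-associated transcript Gm42418 stood at 17914 to 29047 CPM (UMIs of a gene relative to all UMIs summed), against 2059 to 4249 in the other 13. Mouse 34, of the 3xTg-AD alcohol group, had the fewest nuclei (4955) and the highest median depth (2175 UMIs). Across libraries, 1694 barcodes occurred more than once, with 3 to 27 shared by each pair of libraries. Nothing in the labels says that replicates were handled on separate days, and each is a different mouse.

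The pathway was sparse. Summed over all nuclei, the table held 7337 UMIs of B2m, 4692 of H2-D1, 3529 of Tapbp, 3058 of H2-K1, 2727 of H2-T23, 810 of Psmb8, 801 of Tap2, 389 of Tap1 and 272 of Psmb9. Genes found in fewer than 5 nuclei of a mouse were listed at 0 in that mouse, as Psmb9 was in WT alcohol mouse 7. Of windows of 90 bases near the 3′ end of each transcript, 17.6% of those of H2-T23 occurred also in other genes, among them the heavy chains H2-T22 and H2-D1, so its counts are uncertain. The other 8 genes had no such window.

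Endothelial nuclei had the highest mean level of 8 of the 9 genes. Pericytes had no class of their own, and pericyte and mural markers were also raised in the endothelial class (mean log2 fold over other nuclei 4.45). Levels are given as TMM-scaled CPM of the UMIs summed per mouse and class, and are compared only within a gene. H2-K1 averaged 329 ± 165 CPM (SD, n = 16 mice) in endothelial nuclei and 137 ± 98.8 in microglia-PVM, lower in 15 of 16 mice, against 72.5 in astrocytes, 48.6 in oligodendrocyte precursors (OPC), 22.6 in oligodendrocytes, 6.37 in GABAergic and 3.29 in glutamatergic neurons. For H2-K1 each step from OPC down to glutamatergic neurons held in 14 or 15 of 16 mice, so the order of these 4 classes was steady, while astrocytes lay below vascular leptomeningeal cells (VLMC, 102 CPM) in only 10 of 14 mice. H2-D1 ran from 423 ± 230 CPM in endothelial nuclei over 109 in VLMC, 93.6 in microglia-PVM, 51.4 in OPC, 33.7 in astrocytes, 23.4 in oligodendrocytes and 22.9 in GABAergic neurons to 13.3 in glutamatergic neurons. For H2-D1 the last step was seen in 16 of 16 mice, but oligodendrocytes and GABAergic neurons did not differ beyond their spread (oligodendrocytes the higher in 7 of 16 mice). B2m stood at 397 ± 159 CPM in endothelial nuclei, 115 in microglia-PVM, 97.3 in VLMC, 52.8 in astrocytes, 49.7 in oligodendrocytes, 49.4 in OPC, 21.4 in GABAergic and 18.7 in glutamatergic neurons.

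Among the loading and proteasome genes, the order below the endothelial nuclei differed from gene to gene. Tapbp was 76.6 CPM in endothelial nuclei, 69.3 in VLMC, each higher than the other in 7 of 14 mice, and 45.3 in microglia-PVM against 13.9 in glutamatergic and 12.9 in GABAergic neurons. Psmb8 was 90.5 CPM in endothelial nuclei, 36.1 in microglia-PVM (lower in 13 of 16 mice) and 1.24 in glutamatergic neurons. Psmb9 had means of 28.9, 19.1 and 0.34 CPM in the same classes, but microglia-PVM were the higher in 8 mice and endothelial nuclei in 6, so these were not ordered. Tap2 was 40.6 CPM in endothelial nuclei, 26.9 in VLMC, 18.8 in astrocytes, 16.8 in OPC, 14.9 in microglia-PVM (below astrocytes in 11 of 16 mice), 1.45 in glutamatergic neurons and 1.06 in oligodendrocytes. Tap1 had no endothelial lead in its means, at 18.4 CPM in microglia-PVM and 17.5 in endothelial nuclei, a pair that could not be ordered either (microglia-PVM higher in 6 and endothelial nuclei in 8 of 16 mice). H2-T23, a nonclassical heavy chain whose product engages receptors of natural killer cells, was 139 ± 103 CPM in endothelial nuclei and 44.6 in microglia-PVM, and at 12 CPM in glutamatergic neurons it lay level with astrocytes (11.9) and oligodendrocytes (12.5).

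**Figure D1:**
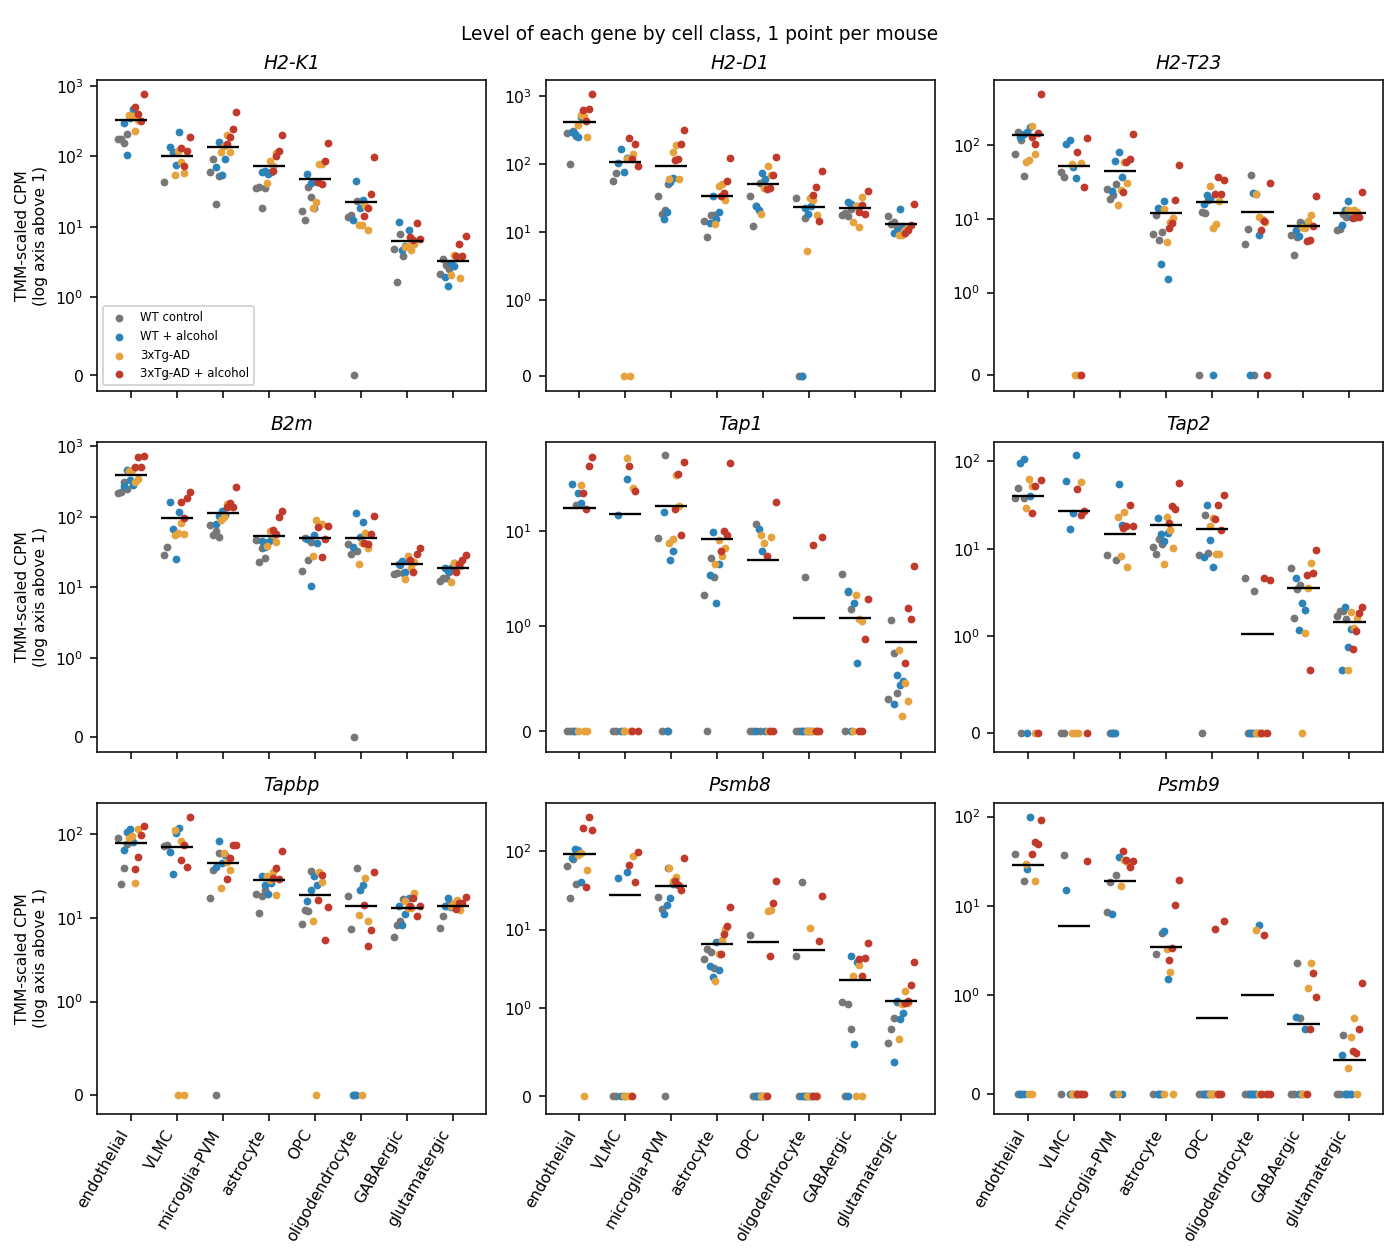
Level of each of the 9 genes (TMM-scaled CPM, log axis above 1) in 8 cell classes, with 1 point per mouse colored by group and a black line at the mean over mice. Endothelial nuclei carry the highest mean of every gene but Tap1, and both neuron classes lie near the lower end for H2-K1, H2-D1 and B2m.

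Among 11 neuronal types, H2-T23 was highest in the corticothalamic neurons of layer 6 (L6 CT). Their level was 26.9 ± 8.34 CPM (SD, n = 16 mice), against 11.6 ± 6.32 in the next type, L6 IT, and L6 CT was the higher of both in 16 of 16 mice. Against Vip and against Sncg interneurons L6 CT was the higher in 14 of 16. H2-D1, one of the genes in which 3′ windows of H2-T23 also occur, was at 25 CPM in L6 CT. It was higher there than in L5 IT and in L2/3 IT neurons in 16 of 16 mice. H2-D1 ran from 31.2 ± 15 CPM in Vip interneurons and 29.3 in Sncg interneurons to 12.1 in L5 IT, 11.3 in L6 IT and 7.23 ± 3.14 in L2/3 IT neurons, the last below L6 IT in 13 of 16 mice. H2-K1 was 11.4 ± 7.20 CPM in Sncg and 11 in Vip interneurons and 2.12 in L5 IT neurons. B2m lay between 29.3 CPM in L5/6 NP and 14.7 in L5 ET neurons, and no neighbors in its order could be told apart.

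The genes whose mean levels over the 8 classes were most like those of H2-K1, among 11473 genes compared, were Tcn2 (Pearson r = 0.989), Tax1bp1, Eif3j1, Pih1d1 and Abcf2. H2-D1 was most like G3bp1 (r = 0.978), and B2m most like the ribosomal protein genes Rpl29 (r = 0.991), Rpl27a, Rps20 and Rpl22. With 8 points that share libraries and depth such values are common, and 453 genes had r above 0.9 with H2-K1, 295 with H2-D1 and 478 with B2m.

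To ask whether genotype and alcohol history moved these genes, counts summed per mouse were compared within each class with edgeR, with a gene called where its p, adjusted over all genes of the class, was at most 0.05. Of the 63 combinations of a member with 1 of 7 testable classes, 22 passed the filter on low counts, with 7 members in glutamatergic neurons, 5 in astrocytes, 3 each in GABAergic neurons, microglia-PVM and endothelial nuclei, 1 in OPC and 0 in oligodendrocytes. The other 41 combinations, most of Tap1, Psmb8 and Psmb9 among them, had too few UMIs and are given below as UMIs summed over the 4 mice of each group. Such sums are not levels in any class, since the groups differed in the number and depth of nuclei. VLMC were not tested, since some mice had fewer than 10 such nuclei. The filter asks for enough counts in at least 4 mice, so a gene can pass through 1 group where it is high. Tap2 in astrocytes, for example, had 16, 28, 28 and 35 UMIs in 3xTg-AD alcohol mice and 3 to 14 in the others.

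The difference was widest between 3xTg-AD mice exposed to alcohol and WT controls. Class I genes rose in microglia-PVM, endothelial nuclei, astrocytes and, for B2m, glutamatergic neurons. Of the 22 tests 11 were called higher and 0 lower, against 0.788% of all 47864 gene tests in the same classes called higher and 1.21% lower. Both shares count only genes that passed the filter, which a member can do through the 3xTg-AD alcohol group alone. The study had itself reported H2-K1 and H2-D1 higher in microglia-PVM, and both with B2m in endothelial cells, in this comparison of these mice. The members were listed with earlier results of these data known, so the shares give no independent support. The levels of the 4 mice of each group did not overlap in 13 of 22, all higher, against a background of 3.48%. The median log2 fold change of the members was 1.24, and that of all genes 0.00. Leaving out 1 mouse at a time left between 7 calls (without WT control mouse 26) and 12 (without mouse 4 or 12), with 8 without WT control mouse 27 and 8 without mouse 34. Without the 3 libraries rich in Gm42418, which leaves 2 WT controls, 3 of the 30 tests then possible in the same classes were called. A covariate was also tried, the log2 share of Gm42418 and other ribosomal RNA-associated transcripts in all UMIs of a mouse. With it, called the Gm42418 share below, 2 were called.

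In microglia-PVM, the resident immune cells of the brain and the macrophages of its vessels, both classical heavy chains and the light chain rose, 3 calls of 3 tests where 0.735% of all genes tested in the class were called higher. H2-K1 was at 59.9, 92.4, 21.2 and 52.2 CPM in WT controls, 71.9, 162, 54.7 and 93.2 in the WT alcohol group, 114, 142, 203 and 117 in the 3xTg-AD group, and 151, 190, 246 and 427 in the 3xTg-AD alcohol group. The lowest 3xTg-AD alcohol mouse thus lay above the highest WT control, while it lay below the highest WT mouse exposed to alcohol. The log2 fold change of H2-K1 against WT control was 2.17 ± 0.36 (SE, adjusted p = 0.0001, edgeR), a 4.49-fold difference that rests on 226 UMIs against 20. H2-D1 was at 34.2, 18.5, 21.2 and 52.2 CPM in WT controls and 116, 121, 201 and 318 in the 3xTg-AD alcohol group (log2 fold change 2.36 ± 0.50, adjusted p = 0.0083), and these groups did not overlap. B2m was at 77, 55.5, 63.6 and 52.2 CPM in WT controls and 140, 157, 137 and 268 in the 3xTg-AD alcohol group (1.5 ± 0.33, adjusted p = 0.0033). Without mouse 34 the log2 fold changes were 1.79 for H2-K1, 1.98 for H2-D1 and 1.22 for B2m, of which B2m was no longer called (adjusted p = 0.0503). Leaving out WT control mouse 26 or 27 ended the call of H2-D1, and without the 3 Gm42418-rich libraries H2-D1 was not called (2.10, adjusted p = 0.234) while H2-K1 (2.53, adjusted p = 0.00456) and B2m were. With the Gm42418 share as a covariate H2-K1 alone was called (2.15, adjusted p = 0.0186), at 1.35 for B2m (adjusted p = 0.195) and 1.88 for H2-D1 (adjusted p = 0.337), and with classes taken from marker UMIs the call of H2-K1 ended (2.25, adjusted p = 0.0765). The class's own markers were higher (3 of 10 tested called) and astrocyte markers in it lower (1 of 2 called) in the same comparison, without overlap of their sums, and their part in the class I result was not tested.

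The untested members in microglia-PVM had few UMIs. Summed over the 4 mice of each group, in the order WT control, WT alcohol, 3xTg-AD and 3xTg-AD alcohol, Tapbp had 12, 27, 23 and 51 UMIs, H2-T23 9, 28, 19 and 65, and Psmb8 12, 14, 26 and 42. Tap1 had 4, 4, 11 and 28 UMIs, Psmb9 5, 8, 12 and 29, and Tap2 2, 14, 9 and 19. The microglia-PVM class itself differed in size, with 452, 631, 740 and 1037 nuclei in the same order, so UMI sums are not levels.

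In endothelial nuclei, which line the vessels and had the highest levels, the same 3 genes were the ones with enough counts, and all 3 rose (background 1.2%). H2-D1 was at 293, 99.8, 309 and 265 CPM in WT controls, 303, 282, 255 and 497 in WT alcohol mice, 384, 528, 516 and 248 in the 3xTg-AD group, and 627, 437, 658 and 1071 in the 3xTg-AD alcohol group. Its log2 fold change against WT control was 1.42 ± 0.30 (adjusted p = 0.0025), a 2.68-fold difference. H2-K1 was at 179, 175, 155 and 209 CPM in WT controls and 512, 402, 317 and 765 in the 3xTg-AD alcohol mice (1.39 ± 0.31, adjusted p = 0.0058). B2m was at 217, 224, 309 and 246 CPM against 512, 698, 511 and 734 (1.30 ± 0.27, adjusted p = 0.0023). None of these 3 comparisons overlapped between groups, and leaving out any 1 mouse ended none of the calls. Without the 3 Gm42418-rich libraries the log2 fold changes were 1.19 for H2-D1, 1.30 for H2-K1 and 1.10 for B2m, and none was called (adjusted p = 0.165, 0.175 and 0.199). With the Gm42418 share as a covariate none was either (1.27, 1.41 and 1.09, adjusted p = 0.167, 0.128 and 0.228). The class's own 10 markers summed to 7383 to 10201 CPM in WT controls and 9789 to 14658 in 3xTg-AD alcohol mice, with 1 of 8 tested called higher, and their part in the class I result was not tested. The class held 83 to 104 nuclei per group. Its untested members, in the order WT control, WT alcohol, 3xTg-AD and 3xTg-AD alcohol, were H2-T23 with 17, 33, 15 and 38 UMIs, Psmb8 with 10, 18, 9 and 34, Tapbp with 13, 20, 13 and 14, Tap2 with 7, 11, 5 and 7, Psmb9 with 4, 7, 2 and 11, and Tap1 with 1, 5, 1 and 7.

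Astrocytes, which support neurons and wrap vessels, had 5 testable members, and 4 of them rose (background 0.477%). H2-K1 was at 35.8, 37.2, 18.3 and 36 CPM in WT controls, 60.8, 61.9, 55.5 and 60.8 in WT alcohol mice, 42.7, 85.3, 72.9 and 111 in the 3xTg-AD group, and 62, 102, 118 and 199 in the 3xTg-AD alcohol group (log2 fold change of the last against WT control 1.86 ± 0.34, adjusted p = 0.012). All mice outside the WT control group lay above all WT controls. B2m was at 46.3, 22.9, 36.5 and 26.2 CPM in WT controls and 64.5, 56.7, 99.8 and 119 in 3xTg-AD alcohol mice (1.34 ± 0.24, adjusted p = 0.000676), without overlap and called also without the Gm42418-rich libraries. Tap2, which forms the transporter together with Tap1, was at 10.5, 8.59, 13 and 11.4 CPM against 19.8, 31.1, 28.2 and 57.1 (1.56 ± 0.36, adjusted p = 0.016). Tap2 passed the count filter through the 3xTg-AD alcohol group, where it was high, so its call adds no support to the count of 4. Tapbp was at 19, 11.5, 18.3 and 21.3 CPM against 29.8, 38.9, 29.2 and 62 (1.09 ± 0.30, adjusted p = 0.0485). H2-D1 was at 14.7, 8.59, 18.3 and 18 CPM against 34.7, 37.8, 56.4 and 124, which did not overlap but was not called (1.96 ± 0.52, adjusted p = 0.103). Without mouse 34, H2-K1 (1.55) and B2m (1.16) remained called, and Tap2 (1.26, adjusted p = 0.0801) and Tapbp (0.85, adjusted p = 0.173) did not. Leaving out WT control mouse 26 also ended the call of Tap2, and 12 of the 16 single mice ended that of Tapbp. Without the 3 Gm42418-rich libraries H2-K1 was at 2.03 (adjusted p = 0.0570), Tap2 at 1.43 (adjusted p = 0.134) and Tapbp at 0.95 (adjusted p = 0.277). With the Gm42418 share as a covariate B2m stayed called (1.44, adjusted p = 0.0306) and H2-K1 (1.64, adjusted p = 0.231), Tap2 (1.122, adjusted p = 0.414) and Tapbp (1.02, adjusted p = 0.329) did not, while with classes from marker UMIs B2m (0.91, adjusted p = 0.116), Tap2 and Tapbp lost their calls.

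Tap1, Psmb8, Psmb9 and H2-T23 could not be tested in astrocytes. The class held 1430 nuclei in WT control, 1690 in WT alcohol, 1832 in 3xTg-AD and 2256 in 3xTg-AD alcohol mice. Median depths were 1148.5, 1152, 1099 and 1317 UMIs, so a larger sum is not in itself a higher level. In the order WT control, WT alcohol, 3xTg-AD and 3xTg-AD alcohol, Tap1 had 5, 10, 14 and 55 UMIs, Psmb8 8, 9, 14 and 35, Psmb9 4, 4, 3 and 27, and H2-T23 13, 20, 20 and 65. Mouse 34 alone gave 32 of the 55 Tap1 UMIs and 33 of the 65 H2-T23 UMIs.

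In glutamatergic neurons 7 members could be tested and B2m was the one that rose (background 1.24%). Microglial markers in the same class ran from 43.2 to 62.3 CPM in WT controls and from 66.1 to 84.2 in 3xTg-AD alcohol mice, without overlap and with 2 of 9 called higher, and their part in the B2m result was not tested. B2m was at 12.3, 13.6, 13.5 and 16.6 CPM in WT controls and 16.4, 21.3, 24.7 and 28.8 in the 3xTg-AD alcohol group (log2 fold change 0.69 ± 0.19, adjusted p = 0.0461). The lowest of these 4 mice lay just below the highest WT control. The call ended in 11 of the 16 leave-outs and in 5 of 9 other alternatives. Among the latter were the Gm42418 share as a covariate (0.38, adjusted p = 0.329) and classes from marker UMIs (0.62, adjusted p = 0.124). Leaving out the 3 Gm42418-rich libraries was another. H2-K1 was at 2.13, 3.46, 2.82 and 2.53 CPM against 3.88, 5.74, 3.79 and 7.46, without overlap (0.94 ± 0.30, adjusted p = 0.0856). H2-D1 did not follow, at 17.6, 13.4, 14.1 and 11.9 CPM against 9.8, 10.9, 12.8 and 26.5 (0.06 ± 0.29), with mouse 34 the only one above all WT controls. Psmb8 (1.18 ± 0.44, adjusted p = 0.137), H2-T23 (0.55, adjusted p = 0.265), Tapbp (0.36, adjusted p = 0.259) and Tap2 (-0.26, adjusted p = 0.755) were not called. Of the untested members, Tap1 had 16, 13, 12 and 62 UMIs by group, 32 of the last from mouse 34, and Psmb9 had 4, 3, 11 and 23. In GABAergic neurons B2m (0.60, adjusted p = 0.263), H2-D1 (0.38, adjusted p = 0.547) and Tapbp (0.36, adjusted p = 0.665) were not called. The untested members there had, by group, 17, 42, 18 and 40 UMIs of H2-K1, 24, 40, 31 and 45 of H2-T23, 14, 14, 10 and 24 of Tap2, 3, 11, 5 and 22 of Psmb8, 7, 7, 4 and 3 of Tap1 and 3, 2, 3 and 4 of Psmb9.

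OPC, the dividing precursors of oligodendrocytes, had 1 testable member. The class held 380 nuclei in WT control, 494 in WT alcohol, 476 in 3xTg-AD and 644 in 3xTg-AD alcohol mice. H2-K1 was at 16.9, 12.5, 36.4 and 26.7 CPM in WT controls and 43.5, 41, 86.7 and 156 in 3xTg-AD alcohol mice, without overlap and without a call (1.73 ± 0.57, adjusted p = 0.145). The untested members of OPC had, by group, 13, 27, 27 and 50 UMIs of H2-D1, 13, 23, 33 and 39 of B2m, 4, 7, 7 and 21 of H2-T23, 4, 7, 7 and 20 of Tap2, 7, 13, 8 and 13 of Tapbp, 1, 0, 4 and 11 of Psmb8, 1, 2, 3 and 4 of Tap1 and 0, 0, 0 and 2 of Psmb9. In oligodendrocytes no member had enough counts, with 23, 39, 18 and 46 UMIs of B2m, 12, 13, 6 and 32 of H2-K1, 12, 11, 9 and 35 of H2-D1, 17, 11, 6 and 12 of Tapbp, 3, 9, 7 and 10 of H2-T23, and 10 or fewer in all of each of the other 4 genes.

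**Figure D2:**
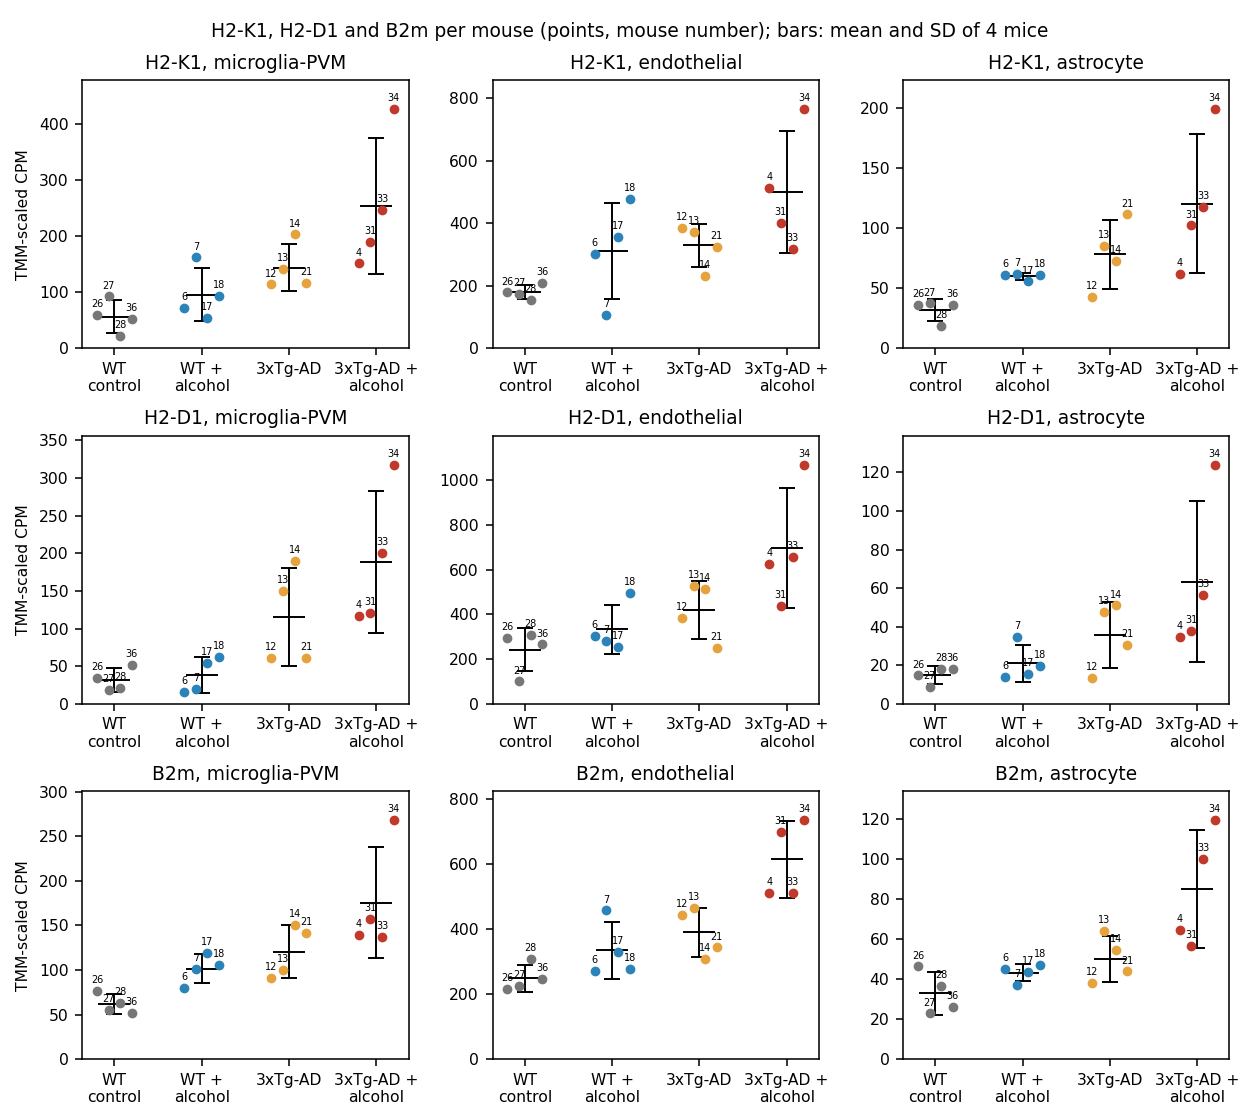
H2-K1, H2-D1 and B2m (rows, TMM-scaled CPM) in microglia-PVM, endothelial nuclei and astrocytes (columns), with 1 point per mouse, its number above it, and bars for the mean and SD of 4 mice. In each of the 9 panels the 4 mice of the 3xTg-AD alcohol group lie above all WT controls, and mouse 34 is the highest of all 16.

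Over all nuclei of a mouse, named and unnamed, every member had enough counts, and 5 of 9 rose against a background of 1.56% of 16767 genes called higher. In such sums a change in the number of cells of a type and a change in RNA per cell cannot be told apart. H2-K1 was at 8.18, 7.08, 5.57 and 7.56 CPM in WT controls and 15.3, 20, 24.3 and 37.8 in the 3xTg-AD alcohol group (log2 fold change 1.77 ± 0.25, adjusted p = 0.000913), and B2m at 23.7, 20.5, 21.7 and 24.6 against 33.3, 35.6, 52.9 and 55.5 (0.97 ± 0.20, adjusted p = 0.011). Both pairs of groups were separate. The immunoproteasome subunits, which replace catalytic subunits of the standard proteasome, rose as well. Psmb8 was at 2.11, 2.21, 1.86 and 2.59 CPM against 4.19, 3.98, 7.1 and 10.4 (1.53 ± 0.29, adjusted p = 0.00688), and Psmb9 at 0.486, 0.553, 0.795 and 0.749 against 1.44, 1.78, 3.03 and 3.46 (1.87 ± 0.50, adjusted p = 0.0428). Tap1 was at 1.22, 0.995, 1.33 and 1.02 CPM against 1.44, 2.61, 2.18 and 8.66 (1.67 ± 0.44, adjusted p = 0.0425). Without mouse 34 Tap1 (0.86, adjusted p = 0.131) and Psmb9 (1.67, adjusted p = 0.111) were not called, and each also lost its call in 9 or more other leave-outs. With the Gm42418 share as a covariate H2-K1 and Psmb8 stayed called, and B2m (0.73, adjusted p = 0.112), Psmb9 (1.49, adjusted p = 0.206) and Tap1 (1.57, adjusted p = 0.162) did not. H2-D1 (0.79, adjusted p = 0.0859), H2-T23 (0.85, adjusted p = 0.0755), Tap2 (0.90, adjusted p = 0.0652) and Tapbp (0.47, adjusted p = 0.0962) were not called.

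**Figure D3:**
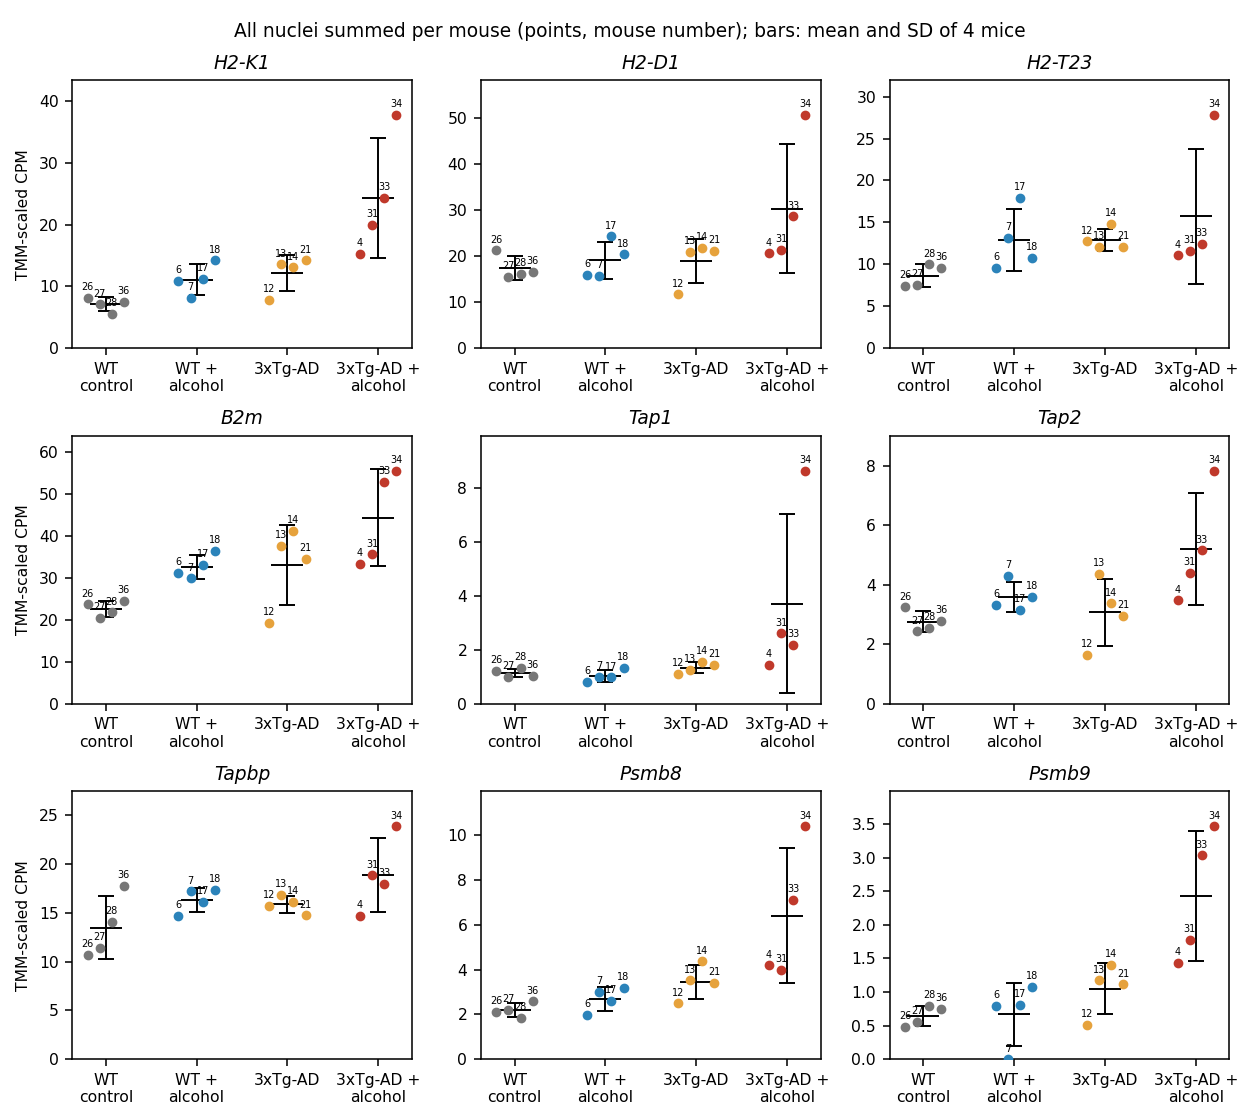
Level of each of the 9 genes (TMM-scaled CPM) in all nuclei summed per mouse, with 1 point per mouse, its number above it, and bars for the mean and SD of 4 mice. Mouse 34 is the highest of 16 in every panel, and Tap1 in that mouse reaches 8.66 CPM against 1.44 to 2.61 in the rest of its group.

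The other comparisons were made with the same fits, so the groups they share are not independent. Between 3xTg-AD and WT control mice, the genotypes without alcohol, 0 of 22 members were called by edgeR and 0 by DESeq2, where 0.0919% of all gene tests were called higher. An unadjusted p under 0.05 was seen in 9 of 22 members and in 7.04% of all gene tests. In microglia-PVM H2-K1 differed by 1.34 ± 0.40 on the log2 scale (adjusted p = 0.264), H2-D1 by 1.64 ± 0.56 and B2m by 0.97 ± 0.36 (both adjusted p = 0.506), and none of these 3 overlapped between groups. Over the 22 tests 7 were separate and higher (background 1.66%) and 1 was separate and lower (background 1.81%), H2-D1 in glutamatergic neurons (-0.47, adjusted p = 0.729). In all nuclei edgeR called 0 of 9 (background 0.119%) and DESeq2 none of the 6 followed there, and 4 had an unadjusted p under 0.05, as had 8.18% of all genes.

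Between WT mice exposed to alcohol and WT controls, 0 of 22 were called by either tool, where 0.00627% of all gene tests were called higher. An unadjusted p under 0.05 was seen in 3 of 22 members and in 9.86% of all gene tests. H2-K1 was 0.91 ± 0.33 higher on the log2 scale in endothelial nuclei (adjusted p = 0.634) and 0.88 ± 0.39 in astrocytes (adjusted p = 0.521), the latter without overlap. These differences did not pass the test, and the 4 separate pairs of groups compare with a background of 3.06%. In all nuclei edgeR called 0 of 9 (background 0.00596%) and DESeq2 none of the 3 to which it gave an adjusted p among those followed there. An unadjusted p under 0.05 was seen for H2-K1, B2m and H2-T23, 3 of 9, and for 14.2% of all genes.

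Between 3xTg-AD mice with and without alcohol, 0 of 22 were called by either tool, where 0.071% of all gene tests were called higher. An unadjusted p under 0.05 was seen in 8 of 22 members and in 9.62% of all gene tests. The nearest to a call were Tap2 in astrocytes (1.17 ± 0.32, adjusted p = 0.118) and B2m in astrocytes (0.72, adjusted p = 0.163), and H2-K1 in microglia-PVM stood at 0.82 ± 0.26 (adjusted p = 0.311). Of the 22 pairs, endothelial B2m alone was separate between these groups (0.62, adjusted p = 0.518), where the background was 2.38%. In all nuclei 9 of 9 members were above 0 and 7 had an unadjusted p under 0.05, against 12% of all genes, while edgeR called 0 of 9 (background 0.0596%) and DESeq2 called 1. This was H2-K1, which was at 7.82, 13.6, 13.1 and 14.2 CPM in 3xTg-AD mice, below the lowest 3xTg-AD alcohol mouse, and differed by 0.99 ± 0.24 in edgeR (adjusted p = 0.0726).

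Between the genotypes after alcohol, 3 of 22 were called higher (background 0.334%). H2-K1 (1.64 ± 0.30, adjusted p = 0.000381) and H2-D1 (2.09 ± 0.42, adjusted p = 0.00721) rose in microglia-PVM and B2m (0.94 ± 0.22, adjusted p = 0.0279) in astrocytes of 3xTg-AD mice. Without mouse 34 both microglial calls held, at 1.27 and 1.71, and astrocyte B2m was not called (0.76, adjusted p = 0.155), as it was not without mouse 6, 7, 17, 18 or 33. Of the 22 pairs 7 were separate and higher (background 3.18%). H2-K1 in microglia-PVM overlapped between these groups, as WT alcohol mouse 7 at 162 CPM lay above the lowest 3xTg-AD alcohol mouse. In all nuclei H2-K1 (1.11 ± 0.24, adjusted p = 0.0318) and Psmb8 (1.24 ± 0.28, adjusted p = 0.037) were called (background 0.459%), and neither was without mouse 34 (0.83, adjusted p = 0.117, and 0.92, adjusted p = 0.136), and a total of 6 of 16 leave-outs ended the call of H2-K1 and 8 that of Psmb8.

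No member showed a called interaction, that is, an alcohol difference that depended on genotype. Of 22 tests 0 were called by edgeR or DESeq2, 1 had an unadjusted p under 0.05, as had 4.21% of all gene tests (H2-K1 in glutamatergic neurons, 1.04 ± 0.44, adjusted p = 0.986), and 1 of all 47864 gene tests was called (0.00209%). The interaction of H2-K1 in microglia-PVM was 0.30 ± 0.54 on the log2 scale, an error wide enough to leave its sign unresolved. Averaged over alcohol history, genotype gave 7 calls, all higher in 3xTg-AD mice (background 0.773%), with H2-K1 (1.49 ± 0.25), H2-D1 (1.86 ± 0.35) and B2m (0.87 ± 0.22) in microglia-PVM, H2-D1 (0.84 ± 0.22) and B2m (0.75 ± 0.20) in endothelial nuclei and H2-K1 (1.14 ± 0.23) and B2m (0.78 ± 0.17) in astrocytes. Without mouse 34, 5 calls were made, with B2m in microglia-PVM and both endothelial genes lost and H2-D1 in astrocytes gained. The calls fell to 3 without 3xTg-AD mouse 13 and to 4 without mouse 6, 17 or 27. In all nuclei genotype gave 2 calls of 9 (background 1.51%), H2-K1 (0.95 ± 0.18, adjusted p = 0.00547) and Psmb8 (0.94 ± 0.20, adjusted p = 0.0143), and 0 of 16 leave-outs ended either. Averaged over genotype, alcohol gave 0 calls of 22 by edgeR and by DESeq2 (background 0.566% called higher), with an unadjusted p under 0.05 in 10 of 22 members and 15% of all gene tests. In all nuclei alcohol gave 1, H2-K1 (0.82 ± 0.18, adjusted p = 0.0219, background 0.996%). That call was lost without mouse 18 or 33 and in 1 of 5 other alternatives.

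**Figure D4:**
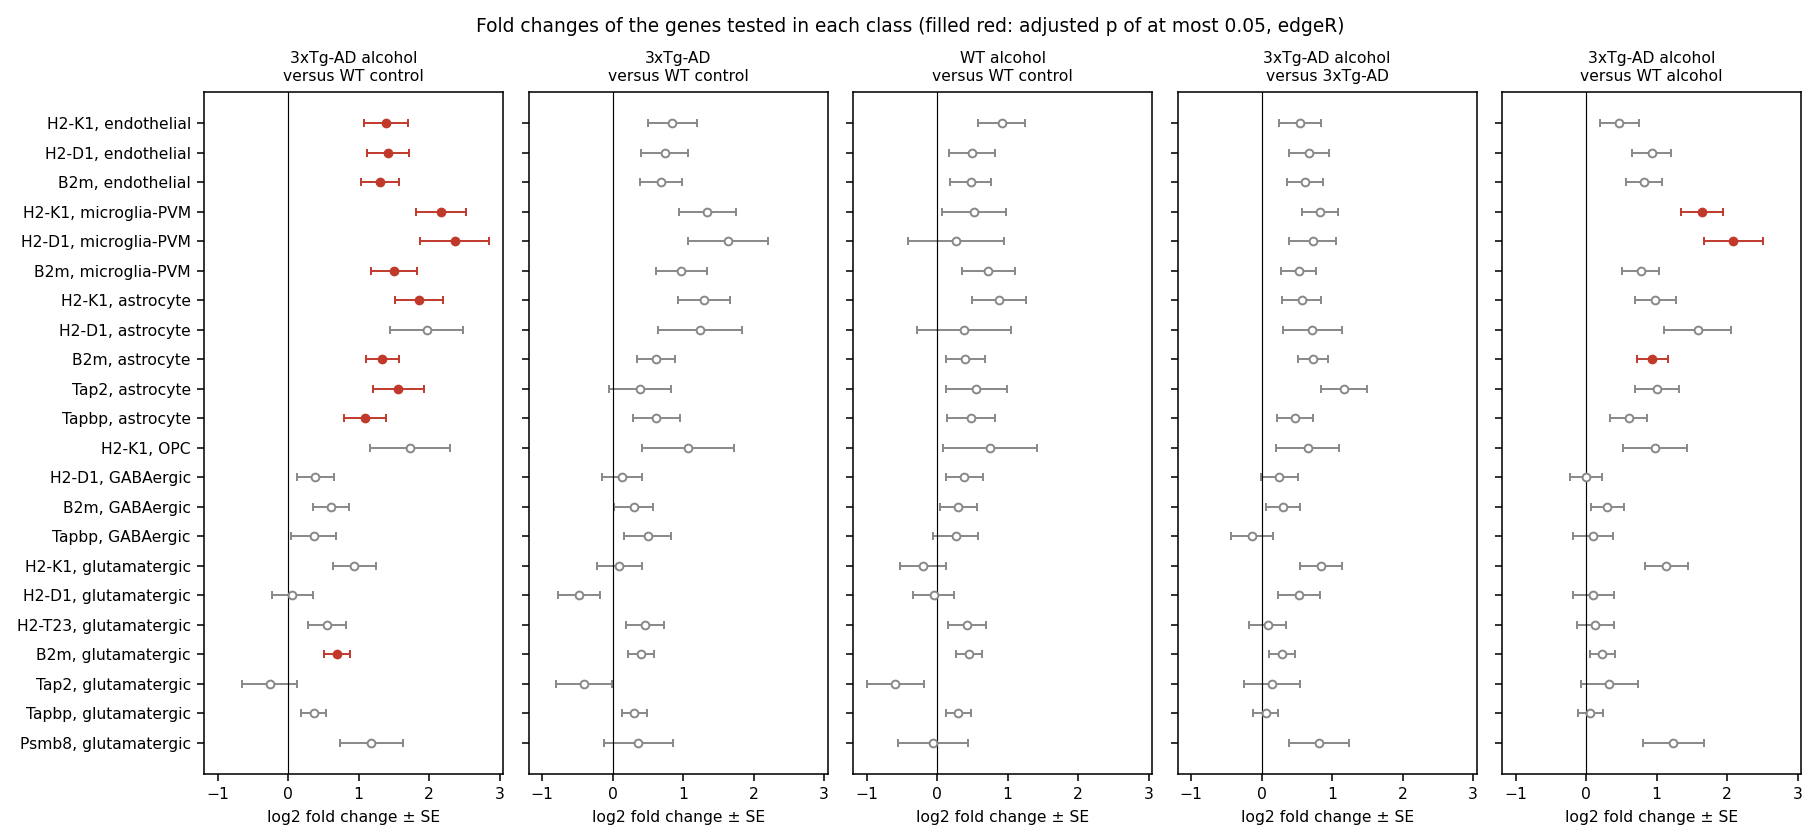
Log2 fold change ± SE (x axis) of the 22 tested combinations of gene and class (y axis) in 5 comparisons (panels), with filled red points for an adjusted p of at most 0.05. The 11 calls of 3xTg-AD alcohol against WT control and the 3 against WT alcohol all lie to the right of 0, and the other 3 panels have none.

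Mouse 34 was the highest of 16 mice in 21 of the 22 tested combinations and in 9 of 9 genes over all nuclei. It also had the highest summed level of 38 interferon-stimulated genes, at 721 CPM over all nuclei against 164, 250 and 265 in the rest of its group, 151 to 202 in 3xTg-AD, 127 to 152 in WT alcohol and 98.6 to 135 in WT control mice. In astrocytes the sum was 2128 CPM in mouse 34, 409 to 686 in the rest of its group and 192 to 240 in WT controls, and in microglia-PVM 3270 CPM, 808 to 1874 and 370 to 539. The remaining 3 mice of the group thus lay above all WT controls in each of these sums. So did the 3xTg-AD mice without alcohol in these sums, at 249 to 424 CPM in astrocytes and 766 to 1487 in microglia-PVM, ranges that overlapped those 3 mice. In endothelial nuclei the sum was 2201 to 5325 CPM in 3xTg-AD alcohol mice, 1957 to 2984 in 3xTg-AD and 1023 to 1972 in WT control mice, so that 3xTg-AD mouse 13 lay below the highest WT control.

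The share of nuclei with at least 1 UMI was also taken per mouse. In microglia-PVM 4.24 ± 2.32% (SD, n = 4 mice) of nuclei had an H2-K1 UMI in WT controls, 7.48 ± 3.25% in WT alcohol, 9.33 ± 3.05% in 3xTg-AD and 18 ± 8.09% in 3xTg-AD alcohol mice, at median depths of 755, 768, 730 and 811 UMIs. Glutamatergic neurons had the lowest share of any class, 0.644, 0.676, 0.688 and 1.54%, at a deeper median of 2303 to 2798 UMIs. Whether these few UMIs are free RNA from other cells was not tested. With every nucleus thinned to 500 UMIs, a depth that all nuclei of these classes reached, the microglial shares of H2-K1 were 2.58 ± 1.23% in WT control, 5.13 ± 3.59% in WT alcohol, 7.24 ± 1.45% in 3xTg-AD and 11.3 ± 4.24% in 3xTg-AD alcohol mice. In each group this was above the share of thinned astrocytes (1.33, 3.01, 3.94 and 5.51%), and glutamatergic neurons were at 0.127 to 0.313%. In thinned endothelial nuclei H2-K1 was found in 13.7, 12.5, 17.4 and 17.5% of nuclei by group, closer together than the unthinned 24.9, 39.9, 34.4 and 54.0%. A microglial nucleus with H2-K1 held 1.05, 1.02, 1.17 and 1.21 UMIs of it by group, so most were seen through a single molecule.

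**Figure D5:**
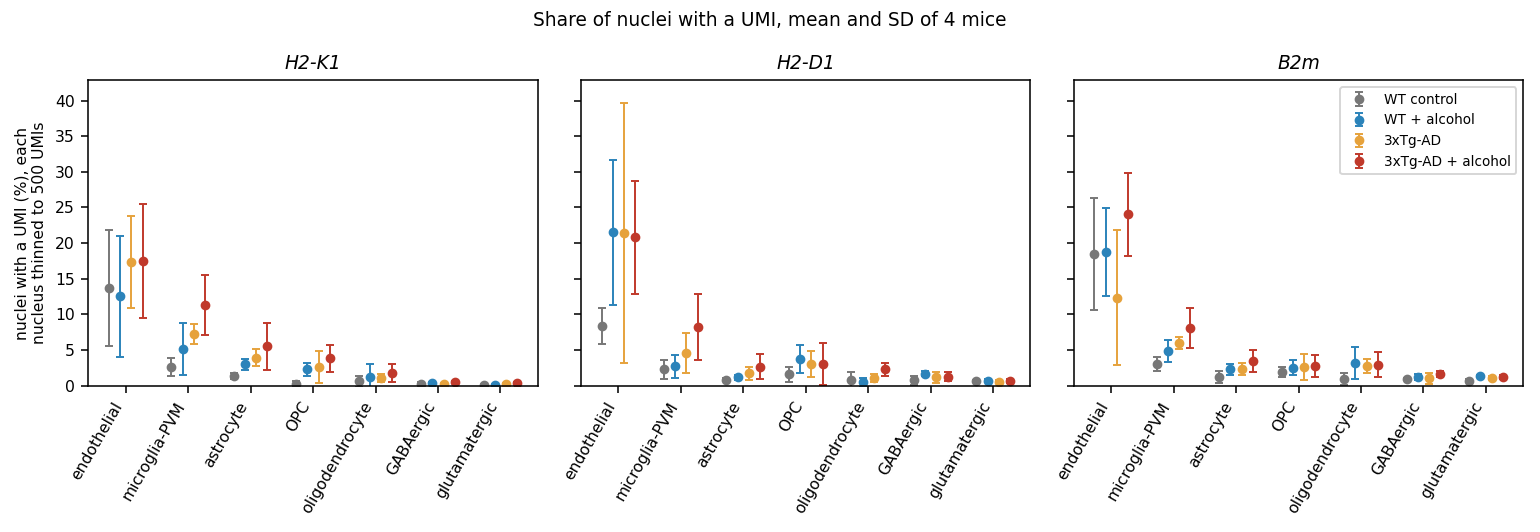
Share of nuclei with at least 1 UMI of H2-K1, H2-D1 or B2m (y axis, percent, each nucleus thinned to 500 UMIs) by class and group, as mean and SD over 4 mice. H2-K1 in microglia-PVM reaches 11.3% in the 3xTg-AD alcohol group, and in glutamatergic neurons it stays at 0.313% or less.

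Markers of other cells within the classes were summed in the same way. In microglia-PVM the 7 perivascular macrophage markers, all in the table and none at 0 over the class, summed to 0 to 111 CPM in WT control, 31.9 to 162 in WT alcohol, 32.7 to 117 in 3xTg-AD and 105 to 320 in 3xTg-AD alcohol mice, from 278 UMIs in all. Their part in the class I result was not tested. Of the 9 listed T and natural killer cell markers, Cd3e, Cd3g, Nkg7 and Klrb1c were not in the table. Of the 5 present, Cd3d, Cd8a, Cd4 and Trac were at 0 in both microglia-PVM and endothelial nuclei. Lck, the other, had 7 and 1 UMIs there. With so few markers, whether T or natural killer cells were present was not tested. The class's own 12 markers ran from 4134 to 4672 CPM in WT controls and from 4706 to 5719 in 3xTg-AD alcohol mice, with 3 of 10 tested called higher, and 9 astrocyte markers in it from 1812 to 2121 and from 1006 to 1493 CPM, with 1 of 2 tested called lower. In endothelial nuclei perivascular macrophage markers had 45 UMIs in all and reached 345 CPM, and blood cell markers had 14698 UMIs and ran from 4214 to 34243 CPM in WT controls and from 5848 to 85982 in 3xTg-AD alcohol mice. The 10 pericyte and mural markers had 1842 UMIs there. They ran from 898 to 2883 CPM in WT controls and from 2047 to 3274 in 3xTg-AD alcohol mice, and none of the 3 tested was called. In astrocytes the 12 microglial markers ran from 88.8 to 177 CPM in WT controls and from 179 to 232 in 3xTg-AD alcohol mice, with 2 of 5 tested called higher, and in all nuclei from 107 to 151 and from 176 to 260 CPM, with 4 of 12 called higher. The part of these blood cell, macrophage, pericyte, mural and microglial markers in the results was not tested.

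Lists of related genes put the members beside the rest of the pathway. Of interferon-stimulated genes, 10 of 47 tested combinations with a class were called higher and 0 lower in 3xTg-AD alcohol against WT control mice, where 0.788% of all gene tests were called higher, and in all nuclei 15 of 33 genes were, against 1.56%. Without mouse 34 these counts were 10 of 47 (0.462% of all gene tests) and 7 of 34 (0.781%), and without the Gm42418-rich libraries 5 of 68 (0.816%) and 4 of 36 (1.61%). Of the first 10 calls 7 were made without mouse 34 too, and Bst2 in glutamatergic neurons, Irgm1 in astrocytes and Ifi27 in oligodendrocytes were not. The study had also reported interferon-regulated genes, among them Ifitm3 and Apobec3, as raised in this comparison. The shares of this list thus give no independent support either. Ifitm3, which blocks virus entry, was at 5.67, 4.75, 2.47 and 2.59 CPM in all nuclei of WT controls and at 10.12, 13.2, 17.6 and 26.1 in 3xTg-AD alcohol mice (2.12 on the log2 scale). Bst2, or tetherin, was at 1.55 to 2.51 CPM against 4.13, 8.96, 13.1 and 35.9 (3.03), and Apobec3, a cytidine deaminase that restricts retroviruses, rose in microglia-PVM (1.70, adjusted p = 0.0011). Ifi27l2a had 0, 1, 0 and 1 UMIs in glutamatergic neurons of WT controls and 8, 41, 32 and 74 in those of 3xTg-AD alcohol mice.

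Outside that list, calls were few in the same comparison, in which 0.788% of all gene tests were called higher and 1.21% lower. Of proteasome genes 2 of 45 combinations rose, Psme1 in glutamatergic neurons (0.55), which encodes a subunit of the proteasome activator, and Psmb5 in astrocytes (0.80), the standard subunit that Psmb8 replaces. The call of Psme1 ended in 9 of 16 leave-outs, among them that of mouse 34, and that of Psmb5 in 4. Of other peptide-loading genes 1 of 69 fell, Tapbpl in astrocytes (-0.90, adjusted p = 0.0485, lost in 14 of 16 leave-outs), and of genes that regulate class I transcription 1 of 79 fell, the kinase Jak2 in glutamatergic neurons (-0.58, lost in 4 of 16). Without the Gm42418-rich libraries Psme1 (adjusted p = 0.137), Psmb5 (adjusted p = 0.189), Tapbpl (adjusted p = 0.193) and Jak2 (adjusted p = 0.117) were not called in these classes. None of 8 combinations of other class I molecules, 6 of class II genes and 3 of class I receptors was called in this comparison. For genotype averaged over alcohol, the receptor Pirb was called lower in glutamatergic neurons (-2.10, adjusted p = 0.0017, edgeR). Of class II genes, Ctss was then called higher in astrocytes (0.90) and Cd74 lower in all nuclei (-1.73). In all nuclei H2-Q7, a nonclassical heavy chain, had 0 UMIs in each WT control, 9, 10, 0 and 12 in WT alcohol, 0, 7, 5 and 9 in 3xTg-AD and 27, 18, 28 and 41 in 3xTg-AD alcohol mice. There H2-Q7 was called higher in 3xTg-AD alcohol than in WT control mice (adjusted p = 0.0093, edgeR). A value of 0 UMIs here means that fewer than 5 nuclei of the mouse held the gene, not that it was absent. The size of this difference is therefore uncertain. Irf7, a transcription factor of the interferon response, was called in all nuclei (1.91) but its call ended in 13 of 16 leave-outs, among them that of mouse 34 (0.80, adjusted p = 0.17), and without the Gm42418-rich libraries (2.04, adjusted p = 0.153). The class II transactivator Ciita fell (-1.01) and the protease Ctss rose (1.13) in all nuclei, calls that ended in 6 and 5 of 16 leave-outs, where 2.5% of all genes were called lower. Calls in the H2 span from Tapbp to H2-T23, which holds 165 other genes of the table, were also taken within the cell classes. There C4b was called higher in glutamatergic neurons and astrocytes and Clic1 in microglia-PVM, and none was called lower. The number of combinations tested is not given here, so these calls cannot be set against the shares of 0.788% and 1.21%. They are not read as a trait of the region.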

How the data were processed

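Nuclei from medial prefrontal cortex of 16 mice were profiled with 10x 3′ chemistry. Per the submitters' notes, the authors aligned reads with Cell Ranger 6.1.1 and STAR to mm10 and deposited raw UMI counts per gene and nucleus in 1 table, in which cell names give the mouse. Whether intronic reads were counted, and the limits of the nucleus filter, are not given in the sources used here. The study states slightly fewer nuclei than the table holds, and it took cell types from a reference atlas. Here the nuclei were clustered anew (scanpy 1.11.5, 2000 variable genes without the members and listed genes, 30 components, 20 neighbors, resolution 1.5), and non-neuronal clusters were named from at least 3 markers raised 1.5-fold. Neuronal clusters were taken by Slc17a7 and Gad1 alone, with limits set after seeing the data. Those with a log2 fold over other nuclei above -0.3 for Slc17a7 and below -0.5 for Gad1 were called glutamatergic, and those above 0.3 for Gad1 and below -0.5 for Slc17a7 GABAergic. Clusters of 8783 and 15663 nuclei with 4 and 5 of 8 glutamatergic markers raised stayed unnamed, since Gad1 was not low in them. A cluster of 10413 nuclei with 7 of 9 astrocyte markers raised also stayed unnamed. Its mean log2 fold was 0.839 for astrocyte and 0.652 for glutamatergic markers, with Slc17a7 at 0.127. The named astrocytes (7208 nuclei) do not include it. Classes may therefore differ from those of the study. A further 3 non-neuronal clusters with at least 3 raised markers (970 nuclei), whose log2 fold was above -0.2 for Slc17a7 or whose markers led the next class by less than 0.5, limits also set after seeing the data, and 4 neuronal clusters led by markers of another class (10214 nuclei, 13.1% of WT control and 6.71% of 3xTg-AD alcohol nuclei) were left unnamed. Non-neuronal clusters of 204, 67 and 17 nuclei also stayed unnamed. Pericyte and mural markers led in the first and oligodendrocyte markers in the others. The limits stated here do not account for the clusters of 67 and 17 nuclei. Doublets were not removed for the values given. Predicted doublets were left out as an alternative.

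Counts were summed per mouse and class (at least 10 nuclei in at least 3 mice per group), filtered with filterByExpr, TMM-scaled and tested with edgeR 4.0.16 (quasi-likelihood, robust) on all 16 mice with Benjamini-Hochberg adjustment within class and comparison, and with DESeq2 1.42.0 as an alternative. The fit was tested on simulated data first. Genes were named as all 9 members, the called list genes and at most 4 genes per list. Members and lists were chosen with earlier results of these data known. P-values measure the spread between mice. Intervals of UMI counts would cover counting error only. No promoter sequence was used for Tap2.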

Additional observations from a re-analysis of the deposited data

Results flagged for a closer look

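Among 124 groups of 4 mice examined for a single mouse far from the others, 8 were flagged. A mouse was flagged where its gap to the nearest mouse made up most of the range of its group. The limit used would flag about 1 in 20 groups of normally distributed values. Whether these values are so distributed was not tested, and the groups share mice. Mouse 34 gave 4 of them, with H2-T23 at 23.2 CPM in glutamatergic neurons (the rest of its group 10.3 to 10.6) and 27.8 in all nuclei (11.1 to 12.4), Tap1 at 8.66 in all nuclei (1.44 to 2.61) and B2m at 268 in microglia-PVM (137 to 157). WT control mouse 28 gave 2, with H2-K1 at 18.3 CPM in astrocytes, below the others at 35.8 to 37.2, and B2m at 20.6 in GABAergic neurons, above the others at 15.5 to 16.2. Tapbp was at 17.1 CPM in glutamatergic neurons of WT alcohol mouse 7 (others 13.2 to 13.8). H2-D1 was at 11.7 CPM in all nuclei of 3xTg-AD mouse 12, a library rich in Gm42418 (others 20.8 to 21.8).

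The unnamed nuclei, which entered no comparison by class, also held class I UMIs. There the mean level of H2-K1 was 27.2 CPM in 3xTg-AD alcohol against 8.08 in WT control mice, that of Psmb8 9.97 against 3.44 and that of Psmb9 2.79 against 0.753. B2m was at 49.9 CPM in WT alcohol and 70.5 in 3xTg-AD alcohol mice against 34.7, and H2-T23 at 12.2, 12.3 and 14 CPM in WT alcohol, 3xTg-AD and 3xTg-AD alcohol mice against 6.46. These differences were not tested.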

How the results depend on the processing

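Over 25 alternatives in the classes and 21 in all nuclei, all 735 values of the 31 called results kept their sign, and 589 stayed called. No paired analysis was possible because the groups share no replicate numbers. The 11 calls of 3xTg-AD alcohol against WT control became 3 without the 3 Gm42418-rich libraries (with fewer mice), 2 with the Gm42418 share as a covariate and 6 with classes taken from marker UMIs. Putting the left-out clusters back and thinning to 500 UMIs were chosen after seeing the data, and the former gave 10 calls. The covariate left 3 of the 7 genotype calls. Without the count filter 6 were called against WT alcohol, 2 for 3xTg-AD against WT control, 1 for 3xTg-AD alcohol against 3xTg-AD (also 1 without the Gm42418-rich libraries) and 1 for alcohol averaged over genotype. Leaving out 1 mouse gave 7 to 12 calls for 3xTg-AD alcohol against WT control, 2 to 4 against WT alcohol, 3 to 8 for genotype and 0 to 1 for 3xTg-AD against WT control, for 3xTg-AD alcohol against 3xTg-AD and for alcohol. Where no cause is given, it was not tested.

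Of the uncalled log2 differences, 7 changed sign. With classes from marker UMIs, Tapbp in GABAergic neurons became -0.072 (3xTg-AD alcohol against WT control) and -0.023 (genotype) and the interaction of Tap2 in astrocytes -0.27. Tapbp in glutamatergic neurons became -0.049 for alcohol with the covariate, and Tapbp in all nuclei -0.010 for 3xTg-AD against WT control without the Gm42418-rich libraries. H2-T23 in all nuclei became -0.14 against both 3xTg-AD and WT alcohol without mouse 34, where its leave-outs reached 0.41 and 0.49.

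Mean shares of nuclei with a UMI scale with depth by construction. H2-K1 ranged from 6.57 at 500 UMIs to 9.77% unthinned in microglia-PVM, was 15.3 at 500 and 28.9% at 1000 UMIs in endothelial nuclei, 3.45, 6.53 and 11.3% at 500, 1000 and 1500 UMIs in astrocytes, and 0.317, 0.496 and 0.888% at 1000, 1500 and unthinned in glutamatergic neurons. H2-D1 was 3.07 and 6.20% in astrocytes at 1000 and 1500 UMIs and 0.644, 1.35, 1.94 and 3.56% in glutamatergic neurons at 500, 1000, 1500 and unthinned. B2m was 5.49 and 8.70% in microglia-PVM at 500 and unthinned, 18.4 and 33.6% in endothelial nuclei at 500 and 1000, 2.31, 4.87 and 6.58% in astrocytes at 500, 1000 and 1500, and 1.07, 1.98, 2.84 and 4.90% in glutamatergic neurons. Too few microglial nuclei reached 1000 UMIs, and too few endothelial nuclei 1500, to give a value. The untested members had too few UMIs to pass the count filter.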
